A study of Homo sapiens with 12 samples.

Results

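Transcripts of the stress-inducible GADD45 family (GADD45A, GADD45B and GADD45G) and of GDF15, a secreted stress protein, were examined in NT2/D1 cells, an established line of human embryonal carcinoma, a pluripotent type of testicular cancer. All probes annotated to these 4 genes were taken, 5 of the 47231 on the array, or 4 of 20045 genes. GADD45A had 2 probes (ILMN_1694075 and ILMN_2052208), GADD45B 1 (ILMN_1718977), GADD45G 1 (ILMN_1651498) and GDF15 1 (ILMN_2188862). All 5 passed the filter on dim probes, which kept 19293 whose detection p, the chance of such a signal from negative control beads, was under 0.05 on 3 or more arrays. RefSeq (GRCh38.p14) places GADD45A at chr1:67685201-67688334, GADD45B at chr19:2476127-2478257, GADD45G at chr9:89605012-89606555 and GDF15 at chr19:18386158-18389176. Wild-type cells of this line made up all 4 groups, with 3 arrays each. Controls are untreated by the protocol but had vehicle by the design text. They were set beside cells given 10 nM 5-aza deoxycytidine (5-aza), a nucleoside that inactivates DNA methyltransferases once built into DNA, for 1 day or, renewed daily, for 3 days. The fourth group received 0.5 µM cisplatin, a platinum drug that crosslinks DNA, during 6 hours, and RNA was taken 24 hours after the drug was removed. Drug and timing differ together between 5-aza and cisplatin and cannot be told apart.

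The GADD45 proteins are small acidic proteins without enzymatic activity of their own. They bind the kinase MAP3K4 and thereby activate stress kinases, and they bind PCNA, the cyclin B1 and CDK1 pair and the cell cycle inhibitor p21. They have also been linked to removal of DNA methylation through base and nucleotide excision repair. GADD45A is a classical target of p53, whereas GADD45B and GADD45G respond mainly to cytokine, NF-kappaB and other stress signals. GDF15 is a distant member of the TGF-beta superfamily that is secreted by stressed cells, is induced through p53 and through the ATF4 and CHOP branch of the integrated stress response, and signals in the hindbrain through GFRAL and RET.

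Promoter sequence of 3 of the 4 genes was matched by symbol in RefSeq (GRCh38.p14), and GADD45A was not among them. The stretch of 250 bases before the annotated start is shown because 5-aza lowers methylation of CpG, and because 2 of these 3 genes rose after 3 days of it while GADD45G did not pass the test. CpG dinucleotides are in capitals.
GDF15, chr19:18385908-18386157, plus strand: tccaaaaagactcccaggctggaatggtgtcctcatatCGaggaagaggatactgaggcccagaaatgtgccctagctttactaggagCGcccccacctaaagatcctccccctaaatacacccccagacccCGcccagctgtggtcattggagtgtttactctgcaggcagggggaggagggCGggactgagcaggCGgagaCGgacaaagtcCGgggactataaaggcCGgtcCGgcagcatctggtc
GADD45B, chr19:2475877-2476126, plus strand: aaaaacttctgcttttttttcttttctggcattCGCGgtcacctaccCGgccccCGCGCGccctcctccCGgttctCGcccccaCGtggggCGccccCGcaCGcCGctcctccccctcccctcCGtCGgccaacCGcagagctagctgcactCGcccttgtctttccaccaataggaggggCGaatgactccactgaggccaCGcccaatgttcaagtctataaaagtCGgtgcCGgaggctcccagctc
GADD45G, chr9:89604762-89605011, plus strand: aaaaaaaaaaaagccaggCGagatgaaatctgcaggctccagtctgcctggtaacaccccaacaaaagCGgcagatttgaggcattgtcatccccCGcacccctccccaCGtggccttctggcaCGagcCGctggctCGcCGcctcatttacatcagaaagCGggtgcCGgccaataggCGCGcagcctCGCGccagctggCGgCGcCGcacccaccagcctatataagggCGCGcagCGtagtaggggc
These stretches held 9 CpG for GDF15, 21 for GADD45B and 20 for GADD45G. Of all 35116 promoter stretches of the same length, 45.9% held fewer CpG than GDF15, 69.8% fewer than GADD45B and 67.6% fewer than GADD45G. The letters TATAAA, searched on both strands, began at position −29 from the start in GDF15 and at −31 in GADD45B, with no match in GADD45G, and 10.7% of all stretches held them. CCAAT matched 1 time in GDF15, 2 times in GADD45B and 1 time in GADD45G (32% of all stretches), and GGGCGG matched 2 times in GDF15 alone of the 3 (42.6%). No match to TGANTCA (6.57% of all), TGACG (21.2%), TGATGNAAT (0.888%) or the p53 decamer (5.57%) lay in any of the 3 windows. Methylation of these sequences was not analysed here.

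Array quality touches several values below. Median intensity was 154.3 to 188.4 units and 15435 to 19824 probes were detected per array, the highest number on cisplatin replicate 3. The cisplatin arrays differed more from each other (median SD 0.335 on the log2 scale, lowest pairwise correlation 0.928) than those of control (0.179), 1 day (0.134) or 3 days (0.142). The model pools 1 variance per probe over the groups, and its errors rest on these arrays too. Groups lay in order on the chip, so position and group cannot be told apart. Of 11 embryonal carcinoma markers with probes, 10 were detected on all arrays of every group, and the sum of their intensities per array ran between 68730 and 104400 units in controls. It ran between 73520 and 76040 after 1 day of 5-aza, 45020 and 48480 after 3 days, and 50850 and 72170 after cisplatin. NANOG and DNMT3B, both high in pluripotent cells, were the 2 markers that fell at 3 days (−1.31 and −1.45 on the log2 scale), as did PDGFRA and THY1 of the fibroblast markers and DCX of the neural ones. The falls of THY1 and DCX were lost in 4 and in 7 alternatives, and the other kept probe of PDGFRA did not pass (−0.65, adjusted p = 0.0629). DCX did not stand for its list, since the 5 measured neural markers had a median of 0.35 at 3 days. The 6 measured fibroblast markers had a median of −0.14, or 0.04 with undetected genes at their floor, against −0.02 over all probes. Among markers of other cell types, 1 of 7 leukocyte, 2 or 3 of 8 fibroblast and 5 of 7 neural genes were detected on every array of a group, and PTPRC, CD14, DCN, LUM, COL1A2, PAX6 and SOX1 on no group's full set. Leukocyte markers summed to between 2364 and 2698 units in controls, 2427 and 2623 after 1 day, 2230 and 2422 after 3 days, and 2352 and 2781 after cisplatin. Fibroblast markers summed to between 4533 and 5860 units in controls, 3945 and 4552 after 1 day, 2985 and 3231 after 3 days, and 3507 and 5661 after cisplatin. For neural markers the sums lay between 13500 and 16730 units in controls, 15430 and 16670 after 1 day, 12280 and 12690 after 3 days, and 13100 and 15020 after cisplatin. All these sums were taken before background correction and normalization, over every probe of the listed genes, undetected ones included. They thus also carry background and the brightness of each array. Median intensity of all probes was 180 to 188.4 units in controls and 154.3 to 165.5 at 3 days. The part of these marker shifts in the results below was not tested. In such sums from bulk RNA, fewer cells of a type, less RNA per cell and dimmer arrays cannot be told apart.

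GDF15 went from undetected to bright under both drugs. In the 3 controls its probe read 156.3, 111.9 and 141.7 units with detection p of 0.51039, 0.71299 and 0.61818. After 1 day of 5-aza it read 132.9, 114.1 and 118.1 units, again at background (detection p 0.64675, 0.6974 and 0.6987). None of these 6 arrays gave a reading distinguishable from the negative control beads. After 3 days of 5-aza the readings were 671.8, 778 and 770.1 units, and with cisplatin 483.4, 517.4 and 763.4, all with a detection p of 0. All 6 of these arrays lay above every control and every 1 day array. In the table as normalized by the authors the same probe stood at 143, 109 and 131 units in controls and at 842, 947 and 961 at 3 days.

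On background-corrected values GDF15 was, against control, at least 9.77-fold higher at 3 days (fitted log2 difference 4.10 ± 0.14, adjusted p = 3.08e-09) and at least 5.21-fold higher with cisplatin (3.19 ± 0.14, adjusted p = 8.72e-08), from limma with Benjamini-Hochberg adjustment over all 19293 probes. Errors are standard errors of the model, n = 3 arrays per group. The bound sets each undetected array at its floor, the lowest normalized signal of any detected probe on that array, whereas the fitted value of an undetected probe depends on the offset. These bounds, here and below, hold for background-corrected values only. Without that correction the log2 difference of GDF15 from control was 2.85 at 3 days and 2.11 with cisplatin. By fitted difference GDF15 ranked 1 of 19293 probes at 3 days and 3 of 19293 with cisplatin. It passed the filter on dim probes only through the 3 day and cisplatin arrays, so the filter favoured its rise. The background rate of calls was 6.99% of probes higher and 5.56% lower at 3 days, and 0.601% higher and 0.207% lower with cisplatin. At 1 day no difference was seen between arrays that were all undetected (−0.07 ± 0.14, adjusted p = 0.967). From 1 to 3 days GDF15 rose at least 9.59-fold after background correction (4.17 ± 0.14, adjusted p = 2.43e-09), and by 2.93 on the log2 scale without it.

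GADD45A, the family member tied most closely to p53 and DNA damage, was detected on all 12 arrays by both probes. ILMN_2052208 read 436.7, 317.4 and 441.4 units in controls, 504.2, 543.8 and 501.4 at 1 day, 1093.8, 974.8 and 1000.4 at 3 days, and 1393.9, 1446.7 and 1755.5 with cisplatin. The readings of all 4 groups stood apart from each other before normalization, and after it those of 3 days and cisplatin overlapped. ILMN_1694075 read 385.3, 296.4 and 404.3 units in controls, 366.9, 347.9 and 366.2 at 1 day, 495.7, 524.3 and 552.9 at 3 days, and 669.4, 1224.6 and 1771.4 with cisplatin. For this probe the 1 day arrays lay within the range of the controls, and cisplatin replicate 1 was far below the other two.

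ILMN_2052208 was 4.88-fold above control at 3 days (2.29 ± 0.16, adjusted p = 1.34e-06) and 5.65-fold above with cisplatin (2.50 ± 0.16, adjusted p = 2.03e-06, rank 6 of 19293). ILMN_1694075 was 2.48-fold above control at 3 days (1.31 ± 0.24, adjusted p = 0.00325) and 4.69-fold above with cisplatin (2.23 ± 0.24, adjusted p = 0.000435, rank 10 of 19293). The cisplatin call of ILMN_1694075 was lost when only the 6 arrays compared were fitted (2.23, adjusted p = 0.0626, range 1.1e-06 to 0.0626 over its alternatives). At 1 day the values were 0.74 ± 0.16 (1.67-fold) for ILMN_2052208, with all treated arrays above all controls, and 0.24 ± 0.24 for ILMN_1694075, and neither passed (adjusted p = 0.643 and 0.936). For the 1 day comparison limma called 0% of probes higher and 0% lower, with 956 probes at an unadjusted p under 0.05, and with array weights it called 42 probes, ILMN_2052208 among them (0.74, adjusted p = 0.0292, range 0.0292 to 1 over its alternatives). Treated arrays lay above all controls for 12.4% of all probes at 1 day, 20.7% at 3 days and 6.24% with cisplatin. Both probes were higher at 3 days than at 1 day (1.54 ± 0.16, adjusted p = 4.1e-05, and 1.07 ± 0.24, adjusted p = 0.0175), against 3.89% of all probes called higher and 2.69% lower. That call of ILMN_1694075 was lost in 8 of 23 alternatives, with adjusted p up to 0.0953, including each of the 6 in which 1 array of either 5-aza group was left out (adjusted p = 0.0667, 0.0726 and 0.0588 without 1 day replicates 1, 2 and 3, and 0.0528, 0.0632 and 0.0815 without 3 day replicates 1, 2 and 3).

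**Figure D1:**
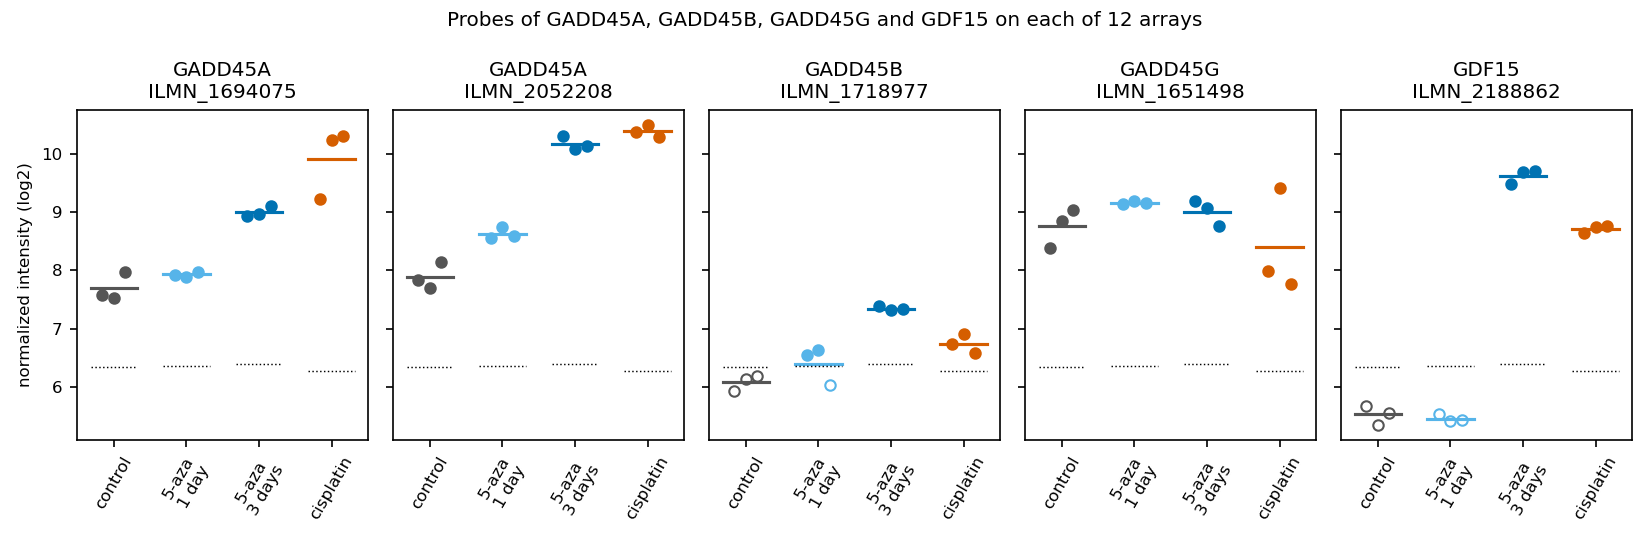
Background-corrected, quantile-normalized log2 intensity of the 5 probes on each of 12 arrays, by group. Filled points are arrays with a detection p under 0.05, open points are undetected arrays, solid bars are group means and dotted lines the mean floor of detection. GDF15 is open on all control and 1 day arrays and filled on all 3 day and cisplatin arrays, and the 3 cisplatin points of GADD45G run from 7.774 to 9.419.

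GADD45B, an early response member that activates stress kinases, was dim throughout. Its probe read 181.7, 191 and 199.8 units in controls, with detection p of 0.27792, 0.16623 and 0.11039. At 1 day it read 216.5, 209.6 and 173.4 units (detection p 0.01558, 0.00779 and 0.21429). It was thus undetected on all controls and on 1 of the 1 day arrays. At 3 days it read 249.1, 251.4 and 241.7 units with a detection p of 0, and with cisplatin 209.9, 232.6 and 258.2 (detection p 0.0039, 0 and 0). After background correction GADD45B was at least 2.01-fold higher at 3 days than in control (1.27 ± 0.18, adjusted p = 0.000402), and without correction the log2 difference was 0.70. It was also higher than at 1 day (0.95 ± 0.18, adjusted p = 0.00513). With cisplatin it stood 0.66 ± 0.18 above control, or 0.37 without background correction, but did not pass (adjusted p = 0.0891). All cisplatin arrays lay above all controls, as for 6.24% of all probes. Without cisplatin replicate 1 GADD45B passed (0.67, adjusted p = 0.0225, range 0.0225 to 0.504 over its alternatives). At 1 day the value was 0.32 ± 0.18 (adjusted p = 0.936).

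GADD45G, the member best known from differentiation and cytokine responses, was detected on all 12 arrays with a detection p of 0 and passed no comparison. It read 577.7, 551.9 and 714.6 units in controls, 698.4, 710.2 and 696 at 1 day, 569.6, 550.7 and 461.4 at 3 days, and 347.4, 746.8 and 475.2 with cisplatin. The highest and the lowest of the 12 readings were both cisplatin arrays. After normalization cisplatin replicate 2 stood at 9.419 on the log2 scale against 7.995 and 7.774 for the others, an SD of 0.893. Against control the values were 0.41 ± 0.33 at 1 day (95% interval −0.31 to 1.12, adjusted p = 0.936), 0.25 ± 0.33 at 3 days (−0.46 to 0.96, adjusted p = 0.693) and −0.36 ± 0.33 with cisplatin (−1.08 to 0.35, adjusted p = 0.568). From 1 to 3 days it was −0.16 ± 0.33 (adjusted p = 0.87). After normalization all 1 day arrays lay above all controls, as for 12.4% of all probes. Before it, control replicate 3 read higher than every 1 day array. Without cisplatin replicate 2, GADD45G was higher than with cisplatin at 3 days (1.12, adjusted p = 0.00438) and at 1 day (1.28, adjusted p = 0.0197), against 0.61 (adjusted p = 0.212) and 0.77 (adjusted p = 0.178) with all arrays. Over their alternatives these adjusted p ranged from 0.00438 to 0.942 and from 0.0197 to 0.684.

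**Figure D2:**
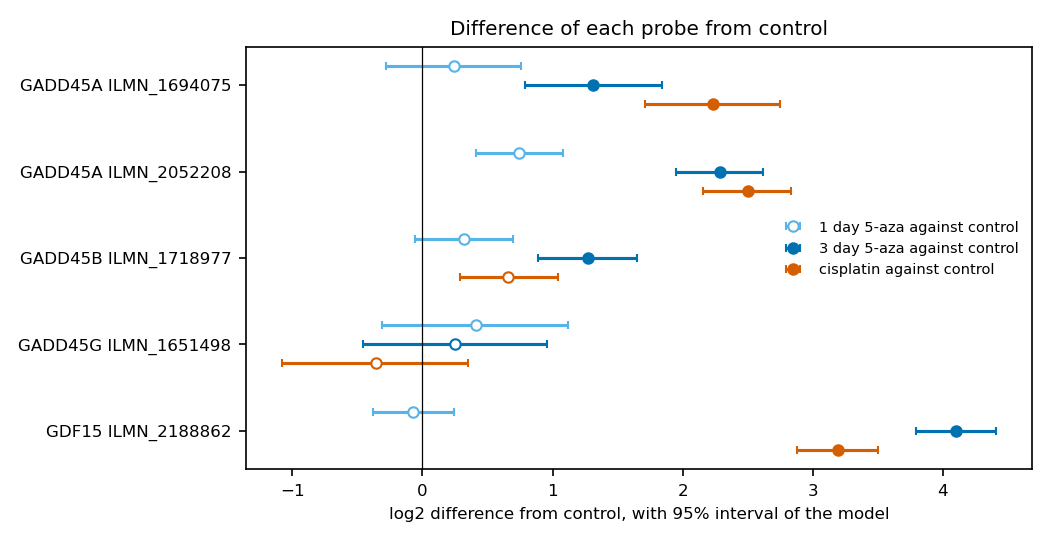
Log2 difference of each probe from control, one point per comparison with the 95% interval of the model, n = 3 arrays per group. Filled points passed an adjusted p under 0.05. GDF15 lies at 4.10 at 3 days and 3.19 with cisplatin, all 1 day points are open, and all 3 points of GADD45G are open with intervals that include 0. Values of GDF15 and GADD45B against control depend on the offset because their control arrays were undetected.

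The moderated F test over the 4 groups called GDF15 (adjusted p = 1.45e-09), both GADD45A probes (1.02e-06 for ILMN_2052208 and 0.000148 for ILMN_1694075) and GADD45B (0.00171) but not GADD45G (0.296), where 15.7% of all probes were called. The 3 comparisons with control share the same control arrays. Set directly against each other, 3 days of 5-aza gave 1.88-fold more GDF15 than cisplatin (0.91 ± 0.14, adjusted p = 0.00113) and 1.52-fold more GADD45B (0.60 ± 0.18, adjusted p = 0.0286), in a comparison that called 10.6% of probes higher and 9.55% lower. Both differences depended on the scaling. With each array scaled to its median, the median of all probes itself moved to −0.20, and GDF15 gave 0.52 (adjusted p = 0.0717, range 0.000356 to 0.0717 over its alternatives) and GADD45B 0.24 (adjusted p = 0.372). The GADD45B call was lost in 10 of 23 alternatives. The GADD45A probes were split. ILMN_1694075 was 1.89-fold higher with cisplatin than at 3 days (−0.92 ± 0.24 for 3 days minus cisplatin, adjusted p = 0.0194), whereas ILMN_2052208 differed by −0.21 ± 0.16 (95% interval −0.55 to 0.12, adjusted p = 0.367). The call of ILMN_1694075 was lost in 6 of 22 alternatives, with adjusted p of 0.0658 and 0.0651 without 3 day replicates 1 and 2 and 0.0668 and 0.0622 without cisplatin replicates 2 and 3.

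Between 1 day of 5-aza and cisplatin, GDF15 was at least 5.12-fold higher with cisplatin after background correction (1 day minus cisplatin −3.27 ± 0.14, adjusted p = 6.45e-08, and −2.18 without correction). GADD45A was 3.38-fold (ILMN_2052208, adjusted p = 0.000135) and 3.97-fold higher with cisplatin (ILMN_1694075, adjusted p = 0.00155), the latter call being lost with only the 6 arrays compared (adjusted p = 0.112). GADD45B stood at −0.34 ± 0.18 (adjusted p = 0.251). Here 0.342% of all probes were called higher and 0.674% lower at 1 day. The order of mean levels was therefore control, 1 day, 3 days and cisplatin for both GADD45A probes, and control, 1 day, cisplatin and 3 days for GADD45B. For GADD45B the neighbours in this order below 3 days did not pass, for ILMN_2052208 neither control and 1 day nor 3 days and cisplatin did, and for ILMN_1694075 control and 1 day did not. GDF15 was undetected in control and at 1 day and brightest at 3 days. For GADD45G the order was cisplatin, control, 3 days and 1 day, with no neighbours that passed.

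The 2 GADD45A probes moved together (Pearson r 0.906 over the 12 arrays, which share scaling and chip) but by unequal amounts. The log2 value of ILMN_1694075 minus that of ILMN_2052208 was −0.26, −0.17 and −0.16 in controls, −0.64, −0.85 and −0.61 at 1 day, −1.37, −1.11 and −1.03 at 3 days, and −1.16, −0.26 and 0.02 with cisplatin. The gap did not overlap between control, 1 day and 3 days, whereas the cisplatin arrays spanned nearly the whole range. Compared with control the gap shifted by −0.50 at 1 day and −0.97 at 3 days, and by −0.47 from 1 to 3 days, each with a two-sided exact permutation p of 0.1, the smallest that 3 against 3 arrays allows, before any adjustment over the 6 comparisons made. With cisplatin the shift was −0.27 (exact permutation p = 0.7). Where in the transcript the probes bind was not analysed here.

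**Figure D3:**
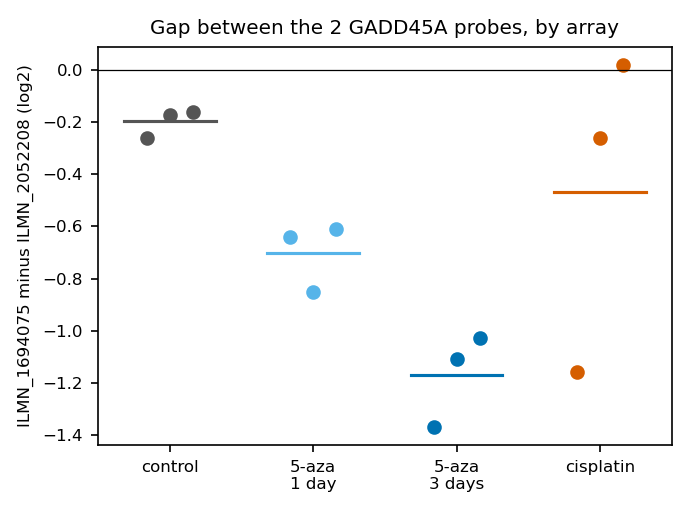
Log2 intensity of GADD45A probe ILMN_1694075 minus probe ILMN_2052208 on each of 12 arrays, by group, with bars at the group means (−0.20 in controls, −0.70 at 1 day, −1.17 at 3 days and −0.47 with cisplatin). The 3 day points lie below all control and 1 day points, and the cisplatin points are scattered.

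Of 11 measured partners and effectors of the GADD45 proteins 1 rose and 2 fell at 3 days (median −0.27, against −0.02 over all probes), where 6.99% of all probes were called higher and 5.56% lower, and 1 rose and none fell with cisplatin (median −0.27 against −0.04), where 0.601% were called higher and 0.207% lower. The one that rose under both was CDKN1A, which encodes p21 (2.65 ± 0.20 at 3 days, adjusted p = 2.09e-06, and 4 ± 0.20 with cisplatin, adjusted p = 1.39e-07). MAP3K4, the kinase that GADD45 proteins activate, fell at 3 days (−0.62 ± 0.15, adjusted p = 0.0175) and stood at 0.35 ± 0.15 with cisplatin (adjusted p = 0.225), and GADD45GIP1, which encodes a mitochondrial ribosome protein that binds GADD45G, fell at 3 days (−0.75 ± 0.22, adjusted p = 0.0386). These 2 falls were lost in 3 and in 14 alternatives, and the count of falls was 0 without control replicate 2, 3 day replicate 1 or 3 day replicate 3, and 1 without each other control, 1 day or 3 day array. Without cisplatin replicate 1, 5 of the 11 were called lower with cisplatin.

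Among 11 measured demethylation and repair factors linked to GADD45, 1 rose and 1 fell at 3 days (median 0.04), against 6.99% and 5.56% of all probes. With cisplatin limma called 0 of the 11 (median −0.19), with 2 at an unadjusted p under 0.05. Leaving out cisplatin replicate 1 gave 2 of the 11 called lower with cisplatin. SMUG1, a uracil DNA glycosylase, was higher at 3 days (0.95 ± 0.17, adjusted p = 0.00302), and ING1, a chromatin reader that binds GADD45A, was lower (−1.02 ± 0.18, adjusted p = 0.00233). With cisplatin these were at 0.14 ± 0.17 and −0.64 ± 0.18 (adjusted p = 0.698 and 0.0989).

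Of 20 measured regulators of GADD45 and GDF15 transcription, 8 rose and 4 fell at 3 days (median 0.16), against 6.99% and 5.56% of all probes. With cisplatin limma called 0 of the 20 (median 0.06), with 6 at an unadjusted p under 0.05. The 3 day counts were 6 and 3 with median scaling. The count of rises was 5 without control replicate 1 and without control replicate 2. The count of falls was 1 without 3 day replicate 1, and 2 without each of the other 3 day replicates and each control replicate. In the direct comparison 7 were higher and 3 lower at 3 days than with cisplatin, where 10.6% of all probes were called higher and 9.55% lower. The rises included DDIT3, which encodes the stress factor CHOP (2.41 ± 0.17, adjusted p = 1.42e-06), CEBPB (1.74 ± 0.23, adjusted p = 0.000288), and the immediate early factors JUN (1.66 ± 0.21, adjusted p = 0.000199), EGR1 (1.53 ± 0.22, adjusted p = 0.000525) and ATF3 (1.35 ± 0.18, adjusted p = 0.000299). MYC, a repressor of GADD45A transcription, fell (−2.01 ± 0.28, adjusted p = 0.000355), as did its other kept probe (−2.58 ± 0.19, adjusted p = 1.7e-06). With cisplatin DDIT3 was at 0.13 ± 0.17 (adjusted p = 0.712) and CEBPB at 0.93 ± 0.23 (adjusted p = 0.074). ATF4 mRNA, whose protein is controlled mainly through translation, stood at 0.05 ± 0.17 at 3 days and 0.19 ± 0.17 with cisplatin by its brightest probe (adjusted p = 0.884 and 0.57). Probe ILMN_2358457 stood at −0.70 ± 0.29 and 0.67 ± 0.29 (adjusted p = 0.134 and 0.217). Probe ILMN_1783394 stood at −0.03 ± 0.24 and 0.26 ± 0.24 (adjusted p = 0.957 and 0.576). None of the 3 ATF4 probes passed, and they did not move alike. Without cisplatin replicate 1, 3 of the 20 were called higher with cisplatin.

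Of 26 measured p53 target genes other than the members, 6 rose and 1 fell at 3 days (median 0.31, or 0.08 with undetected genes at their floor), and 10 rose and 0 fell with cisplatin (median 0.96, or 0.78 at the floor). Over all probes 6.99% were called higher and 5.56% lower at 3 days, and 0.601% and 0.207% with cisplatin. Among the rises with cisplatin, DDB2, PHLDA3 and SPATA18 passed the filter on dim probes only through the cisplatin arrays, so the filter favoured their rise. EDA2R, not called, entered the list in the same way. BBC3, also not called, entered through 2 cisplatin arrays and 1 array at 3 days. The cisplatin median includes all of these genes. Both drugs raised CDKN1A, SESN1, which encodes a sestrin (1.46 ± 0.23 and 2.36 ± 0.23), TNFRSF10B, a death receptor (1.22 ± 0.20 and 1.83 ± 0.20), and IER3, an early response gene (1.44 ± 0.17 and 1.61 ± 0.17). The cisplatin calls of TNFRSF10B and IER3 were each lost in 1 alternative (limma, adjusted p = 0.0626 for both). PHLDA3, an inhibitor of AKT signalling, and DDB2, a damage recognition factor of nucleotide excision repair, were undetected in all controls and were at least 5.85-fold and 2.81-fold higher with cisplatin after background correction (adjusted p = 0.00043 and 0.000282), each call being lost with only the 6 arrays compared (0.0528 and 0.0505). At 3 days they stood at 0.87 ± 0.37 and 0.66 ± 0.24 (adjusted p = 0.145 and 0.0874), and passed in 5 and in 7 alternatives, among them those without cisplatin replicate 1 and without cisplatin replicate 3. The cisplatin count was 2 with only the 6 arrays compared and 16 without cisplatin replicate 1. The 3 day count of rises was 4 with median scaling and 12 with no cisplatin arrays in the fit. With an array left out it ran from 5 to 10, the latter without cisplatin replicate 3.

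Of 17 measured ATF4 and CHOP target genes, 11 rose and 1 fell at 3 days (median 0.72, or 0.68 at the floor), against 6.99% and 5.56% of all probes. With cisplatin 1 of the 17 rose (median 0.41), against 0.601% of all probes. The 3 day count of rises was 6 with median scaling and 7 without control replicate 1 or without 3 day replicate 2. It was 13 with no cisplatin arrays in the fit and 12 without cisplatin replicate 1. The cisplatin count was 7 without cisplatin replicate 1, 4 without cisplatin replicate 3 and 0 without any 1 of the other 10 arrays. TRIB3, a pseudokinase induced by CHOP, rose under both (2.52 ± 0.29, adjusted p = 9.08e-05, and 1.45 ± 0.29, adjusted p = 0.0314), its cisplatin call being lost in 15 alternatives. PPP1R15A, also named GADD34, which directs dephosphorylation of eIF2alpha, rose at 3 days (1.57 ± 0.23, adjusted p = 0.000655) and stood at 0.56 ± 0.23 with cisplatin (adjusted p = 0.199), and STC2, a secreted stress glycoprotein, gave 1.16 ± 0.19 and 0.77 ± 0.19 (adjusted p = 0.00154 and 0.0733). DDIT3, CEBPB, ATF3 and XBP1 are in this list and in that of the regulators.

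Both probes of GFRAL, the receptor of GDF15, were undetected on all 12 arrays. RET, its signalling partner, had 2 of 3 probes detected on all 12 arrays. The brighter stood at 0.13 ± 0.16 at 3 days and 0.08 ± 0.16 with cisplatin (adjusted p = 0.682 and 0.831) and the other at 0.59 ± 0.27 and 0.23 ± 0.27 (adjusted p = 0.18 and 0.671), and limma called 0 of the 3 measured receptor and processing genes under either drug, with 0 at an unadjusted p under 0.05 with cisplatin. Of 27 other TGF-beta family ligands with probes 7 were measured. At 3 days 1 of these rose and 4 fell (median −1.18), against 6.99% and 5.56% of all probes. With cisplatin limma called 0 of the 7 (median 0.29), with 2 at an unadjusted p under 0.05. Leaving out cisplatin replicate 1 gave 3 of the 7 called higher with cisplatin. INHBE, which encodes the inhibin beta E chain and is a stress-responsive ligand, rose at 3 days (2.46 ± 0.18, adjusted p = 1.83e-06). GDF3, a ligand of pluripotent cells, fell (−2.03 ± 0.18, adjusted p = 1.09e-05), as did LEFTY1 (undetected on all 3 day arrays, −2.29 ± 0.21, adjusted p = 1.14e-05, or −1.36 without background correction), LEFTY2 (−1.52 ± 0.36, adjusted p = 0.0135) and AMH, the anti-Müllerian hormone (−1.18 ± 0.29, adjusted p = 0.018). The calls of LEFTY2 and AMH were lost in 4 and in 6 alternatives (adjusted p up to 0.0629 and 0.0927), and the count of falls was 2 with no filter, without control replicate 2 and without 3 day replicate 2. LEFTY1 and LEFTY2, antagonists of NODAL, are near-identical in sequence, and their probes may not separate them. At 1 day limma called 0 genes of any of these lists, with 2 p53 targets, 1 ATF4 and CHOP target and 1 partner at an unadjusted p under 0.05 and 0 in the others.

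**Figure D4:**
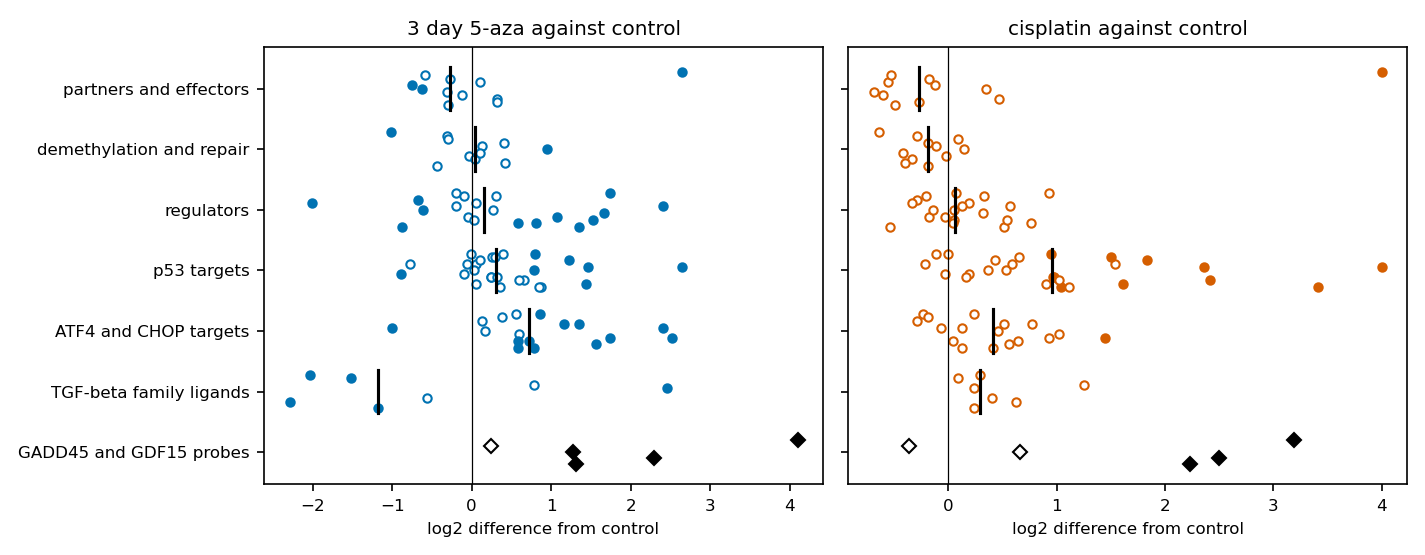
Log2 difference from control of each measured gene, by list, at 3 days of 5-aza (left) and with cisplatin (right), n = 3 arrays per group. Filled symbols passed an adjusted p under 0.05, black bars are list medians and diamonds are the 5 GADD45 and GDF15 probes. At 3 days 11 of 17 ATF4 and CHOP targets are filled on the right of 0, and with cisplatin 10 of 26 p53 targets are. Of all probes 6.99% were called higher at 3 days and 0.601% with cisplatin. DDB2, PHLDA3 and SPATA18 among these p53 targets passed the filter on dim probes only through cisplatin arrays. GDF15 passed it only through 3 day and cisplatin arrays. Genes in 2 lists appear in both.

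Patterns most like each gene over the 12 arrays were ranked by Pearson r across the brightest kept probe of 11139 genes, as a description only, since the arrays fall into 4 groups and share scaling. For GADD45A (ILMN_2052208) these were CFD (0.968), RHOC (0.964), SERTAD1 (0.962), INKA2 (0.961) and IER3 (0.959), and for GDF15 TAP1 (0.973), RHOC (0.967), ADARB1 (0.965), TYMSOS (0.955) and CFD (0.953). CFD and RHOC were thus near both. For GADD45B the nearest were TOX2 (0.954), TACC1 (0.949), ECHDC2 (0.940), HDHD3 (0.936) and RHOU (0.935), and for GADD45G DDRGK1 (0.928), CCDC85C (0.927), PAQR4 (0.916), PTH1R (0.907) and MRPL14 (0.902).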

How the data were processed

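RNA was extracted with Trizol, labelled with an Ambion MessageAmp kit and hybridized to 12 arrays of 1 Illumina HumanHT-12 v4 BeadChip. The authors summarised beads in GenomeStudio (version not given in the sources used here). The deposited non-normalized table holds linear intensity for 47231 probes without background subtraction (lowest 41.6), with the detection p-value against negative control beads that the authors deposited for every probe. Their deposited quantile-normalized intensity table (47226 probes) served as an alternative. Precision is limited by having 3 arrays in each group. The series design names biological triplicates. The labels do not say whether these were separate cultures, and if they were not, p-values measure only the spread between samples.

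In limma 3.58.1 (R 4.3.3) background was corrected by normexp using detection p (offset 16), followed by quantile normalization and log2. Probes with a detection p under 0.05 on at least 3 arrays were kept and tested singly. One mean per group was fitted to 12 arrays (lmFit, eBayes, 8 residual and 5.65 prior degrees of freedom), with Benjamini-Hochberg adjustment over 19293 probes. A call is an adjusted p under 0.05, two-sided. Of all probes 30112 matched 1 symbol, 8 several and 17111 none. Lists used the brightest kept probe per gene.

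Text names all member probes, up to 6 called genes per list with the largest change at 3 days or with cisplatin, fixed regulators and partners, and the 5 nearest patterns. Members and lists were chosen with earlier results of these data known. Alternatives covered normalization, background, filter, probe choice, arrays fitted, array weights, replicate block and each array left out.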

Additional observations from a re-analysis of the deposited data

Results flagged for a closer look

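For 4 probes the effect of 5-aza at 3 days differed from that at 1 day, as tested by the contrast between the times (limma, adjusted over all 19293 probes). The difference on the log2 scale was 4.17 for GDF15, 1.54 for GADD45A probe ILMN_2052208, 1.07 for GADD45A probe ILMN_1694075 and 0.95 for GADD45B, with adjusted p of 2.43e-09, 4.1e-05, 0.0175 and 0.00513. In this contrast 3.89% of all probes were called higher and 2.69% lower. The call of ILMN_1694075 was lost in 8 of 23 alternatives. All 3 arrays at 3 days lay above all 3 at 1 day for each of the 4 probes. How many of all probes did so was not computed for these 2 groups, and it was 20.7% for 3 days against control. The value for GDF15 rests on undetected arrays at 1 day and depends on the offset.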

How the results depend on the processing

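Of 30 values, 5 probes in 6 comparisons, 17 were called. Against 699 recalculations 668 kept their direction where called and their side of the threshold, 27 lost a call, 4 gained one and 0 called values turned direction. The calls of GDF15, GADD45A probe ILMN_2052208 and GADD45B at 3 days against control held under every alternative run, as did those of the first 2 with cisplatin.

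Calls were lost for GADD45B in 3 days against cisplatin with the authors' normalized values (0.33, adjusted p = 0.0508), no background correction (0.33), median scaling (0.24), cyclic loess (0.40), only the arrays compared (0.60) and array weights (0.51), for GDF15 there with median scaling (0.52), and for GADD45A probe ILMN_1694075 there with no filter (−0.92, adjusted p = 0.0554) and only the arrays compared (−0.92, adjusted p = 0.108). For that probe the 3 against 1 day call was lost with median scaling (0.89, adjusted p = 0.0953) and no filter (1.07, adjusted p = 0.0526), and with only the arrays compared those of cisplatin against control (2.23) and 1 day against cisplatin (−1.99). Array weights gained ILMN_2052208 at 1 day (0.74). With an array left out, ILMN_1694075 ranged from 1.02 to 1.11 (3 against 1 day) and from −1.27 to −0.72 (3 days against cisplatin), GADD45B from 0.52 to 0.69 (3 days against cisplatin) and from 0.58 to 0.74 (cisplatin against control), and GADD45G from 0.30 to 1.12 (3 days against cisplatin) and from 0.46 to 1.28 (1 day against cisplatin). GADD45B lost its call against cisplatin without each 3 day replicate (adjusted p = 0.0858, 0.0754 and 0.0772) and without cisplatin replicate 3 (0.0732).

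Counts of called probes were 0 at 1 day, 2421 at 3 days and 156 with cisplatin against control, 1269 for 3 against 1 day, 3886 and 196 for 3 days and 1 day against cisplatin, and 3022 over 4 groups. With only the arrays compared they were 2, 5139, 7, 4274, 820 and 6. With no cisplatin arrays they were 38, 5852 and 3755 for the 3 comparisons of control and 5-aza. With array weights they were 42, 5440, 2165, 4800, 2893 (1 day against cisplatin) and 7635 (4 groups). Cyclic loess gave 255 for cisplatin against control, and for 1 day against cisplatin median scaling gave 107 and no filter 106. With an array left out the ranges were 0 to 1, 1218 to 4142, 39 to 4677, 602 to 2261, 1875 to 6834, 44 to 5510 and 1154 to 7634, in the same order. The highest value came without cisplatin replicate 3 for 3 days against control and 3 against 1 day, and without cisplatin replicate 1 for the 3 comparisons that include cisplatin and for the 4 groups. Median scaling moved the share of higher among called probes from 55.7% to 31.7% at 3 days, 74.4% to 92.6% with cisplatin, 59.1% to 30.3% for 3 against 1 day, 52.6% to 17.7% for 3 days against cisplatin and 33.7% to 11.2% for 1 day against cisplatin. The cause was not tested.

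Same-numbered replicates deviated together (r over 0.1) in 2 of 18 pairs (r −0.453 to 0.205), so the numbers do not pair the samples. With the replicate block the count for 1 day against cisplatin was 96, and no call of the 5 probes changed. Counts of list genes and named list genes were recomputed as alternatives chosen after seeing the data, in which 57 of 1457 recalculations lost a call, 31 gained one and 0 turned.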
